A study of Mus musculus with 157 samples.

Results

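The genes described here are 10 Fanconi anaemia genes, Fanca, Fancb, Fancc, Fancd2, Fance, Fancf, Fancg, Fanci, Fancl and Fancm. They were chosen by symbol, and each of the 10 symbols was found among the 36102 gene symbols of the mouse expression tables. Fanconi anaemia is an inherited bone marrow failure syndrome, and its genes act in a pathway that removes crosslinks between the strands of DNA. FANCA, FANCB, FANCC, FANCE, FANCF, FANCG and FANCL belong to a nuclear core complex, brought to stalled replication forks by the DNA translocase FANCM, and the complex attaches ubiquitin to the paired proteins FANCD2 and FANCI. Blood stem cells depend on the pathway because crosslinks, including those made by aldehydes from normal metabolism, exhaust them when repair fails.

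The series measured N6-methyladenosine (m6A), a common internal mark of messenger RNA, in sorted mouse blood cells. The wild-type atlas covered 16 cell types, each with 2 input RNA libraries and 2 libraries pulled down with an anti-m6A antibody (IP). A second set compared Mettl3 -/- with wild-type cells of 7 stem and progenitor types, 2 input and 2 IP libraries per genotype and type, Mettl3 being the gene of the enzyme that writes most m6A. The third set compared long-term haematopoietic stem cells (LT.HSC), 2 Igf2bp2 -/- libraries with 2 wild-type ones, Igf2bp2 encoding an m6A-binding protein. RNA made in the presence of 4-thiouridine (4sU) was read as T-to-C changes, in 6 wild-type cell types with 2 libraries each after a pulse of 3 h, and at 7 times of a chase that followed a pulse of 24 h in LT.HSC and in megakaryocyte progenitors (MkP). The labels call the atlas cells wild type and untreated. The labels used here name no strain, age, Cre driver or animal, and they do not say that the 2 replicates of a group came from separate mice, so a p-value here speaks of spread between libraries that may be technical.

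Depth was 8.23 to 21.5 M reads (M, mega) in the atlas inputs, 10.8 to 24.6 M in the atlas IP libraries and 3.42 to 20.2 M in the Mettl3 inputs. It was 0.819 to 22.9 M in the Mettl3 IP libraries and 4.68 to 19.98 M in the Igf2bp2 set. Marker lists were highest in their own type for B_cell, DC, Erythroid, GMP, MEP and MkP. The libraries labelled CD4 and CD8 went against their labels: Cd4 stood at 7.77 and 13.7 normalised units in the inputs labelled CD4 and at 1510 and 1482 in those labelled CD8, while Cd8a stood at 12002 and 11930 in those labelled CD4 and at 80.3 and 30.9 in those labelled CD8. Cd8b1 followed Cd8a, and in the IP libraries Cd8a had 11016 and 11769 counts under the label CD4 and 15 and 320 under the label CD8. CD4 and CD8 therefore mean the label throughout, and calls that change without these libraries are given. The libraries labelled Monocyte stood apart: they held a list of neutrophil markers at a summed 219928 CPM (reads as a share of the library total, on the usual CPM scale), against 87061 in Neutrophil, and had the third highest monocyte list of the 16 types. They also had the coarsest values, 1 read being worth 7.97 and 11.6 normalised units there and 0.412 to 2.63 in the other 30 input libraries, so results resting on mature cells are given with and without them. The LT.HSC marker list summed to 714 CPM in LT.HSC and to 1240 in the libraries labelled CD8, the only ones above it. A lymphoid progenitor list summed to 640 CPM in CLP, at rank 5 of the 16 types, against 1052 in LMPP and 1538 in MPP. CLP also had the highest monocyte list, 3567 CPM, against 2931 in the libraries labelled Monocyte, so CLP too means the label. Mettl3 itself ranged from 274 to 931 normalised units (median 489) in the 14 inputs labelled knockout, against 127 to 5370 (median 428) in the 14 labelled wild type. Igf2bp2 stood at 13.03 and 12.5 CPM in the libraries labelled knockout, against 7.11 and 53.5 in those labelled wild type. Neither level sets the genotypes apart, and the labels used here do not say which part of each gene was deleted, so knockout means the label throughout.

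The genes lie on 9 chromosomes of the mouse assembly GRCm38.p6, by RefSeq. The core complex genes are Fanca (chr8:123266294-123318651), Fancb (chrX:164980480-164997272), Fancc (chr13:63301334-63497292), Fance (chr17:28313530-28326574), Fancf (chr7:51860577-51862267), Fancg (chr4:43002337-43010567) and Fancl (chr11:26387084-26471883), with Fancm at chr12:65074110-65131842. The genes of the ubiquitinated pair are Fancd2 (chr6:113531640-113597020) and Fanci (chr7:79392312-79450266). Protein-coding genes overlap 7 of them: Zfp276 overlaps Fanca, Mospd2 Fancb, Aopep Fancc, Fancd2os Fancd2, Gas2 Fancf, Polg Fanci and Vrk2 Fancl. No label says whether reads were counted by strand, so reads of overlapping pairs may not be separable.

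RefSeq promoter windows, 250 bases before to 50 after a transcript start, were matched for 9 of the 10 genes. Those of Fancg, Fance, Fanca and Fanci are printed because the results below turn on Fancg for m6A, on Fance and Fanca for their opposite differences between stem and mature cells, and on Fanci for the ubiquitinated pair. Capitals mark an E2F-type motif (TTTCCCGC, TTTCGCGC, TTTGCCGC or TTTGGCGC), a CCAAT box (CCAAT) or a GC box (GGGCGG), searched on both strands, so that ATTGG and CCGCCC are the reverse forms.
Fancg, chr4:43010252-43010551, minus strand: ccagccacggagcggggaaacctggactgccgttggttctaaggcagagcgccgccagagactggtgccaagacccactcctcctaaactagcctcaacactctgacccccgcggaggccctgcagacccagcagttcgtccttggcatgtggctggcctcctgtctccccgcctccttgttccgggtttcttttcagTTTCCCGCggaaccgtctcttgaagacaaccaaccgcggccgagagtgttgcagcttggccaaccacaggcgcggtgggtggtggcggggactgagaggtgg
Fance, chr17:28313280-28313579, plus strand: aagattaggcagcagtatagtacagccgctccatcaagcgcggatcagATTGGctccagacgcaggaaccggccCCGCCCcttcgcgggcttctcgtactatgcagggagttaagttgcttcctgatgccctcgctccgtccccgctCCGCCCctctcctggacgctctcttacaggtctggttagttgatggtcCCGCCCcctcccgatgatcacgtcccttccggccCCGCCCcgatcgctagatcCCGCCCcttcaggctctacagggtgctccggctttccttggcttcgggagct
Fanca, chr8:123318527-123318826, minus strand: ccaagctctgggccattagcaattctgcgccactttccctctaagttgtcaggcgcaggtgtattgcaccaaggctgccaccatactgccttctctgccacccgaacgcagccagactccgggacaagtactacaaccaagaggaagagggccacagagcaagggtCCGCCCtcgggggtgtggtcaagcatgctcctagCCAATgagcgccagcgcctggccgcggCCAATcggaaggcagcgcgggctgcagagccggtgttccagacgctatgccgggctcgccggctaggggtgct
Fanci, chr7:79392088-79392387, plus strand: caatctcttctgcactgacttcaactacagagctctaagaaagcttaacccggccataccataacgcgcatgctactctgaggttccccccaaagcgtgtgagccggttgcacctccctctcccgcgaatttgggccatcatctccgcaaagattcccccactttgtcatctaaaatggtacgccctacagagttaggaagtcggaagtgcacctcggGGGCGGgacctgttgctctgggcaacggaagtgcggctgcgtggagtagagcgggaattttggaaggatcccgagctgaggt
The window of Fancg held the only E2F-type match among the 9, from -52 to -45 with the start as 0, a motif held by 2.26% of all 32851 promoter windows of this length. Fance held 5 GC boxes and 1 CCAAT box, Fanca held 2 CCAAT boxes and 1 GC box, and Fanci held 1 GC box. A CCAAT box was found in 37.4% and a GC box in 35.7% of all windows, and these matches describe letters, not bound sites. The transcript starts behind the windows lie inside the annotated gene by 266 bases for Fancg, 75 for Fanca and 26 for Fanci, and at its edge for Fance. Among the windows not printed, the start lies 1493 bases inside the gene for Fancm and 65547 for Fancc. The search therefore did not cover the annotated 5' edge of every gene.

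All 10 genes were detected in the atlas, and their levels differed between cell types. Input values are the authors' normalised counts, and in a test of any difference among the 16 types (limma F test on log2(value + 1), Benjamini-Hochberg adjustment over all 17165 genes tested) 10 of 10 were called, beside 92.8% of all genes. Levels are given as mean ± SD of 2 libraries, and in bulk RNA fewer cells of a type and less RNA per cell cannot be told apart.

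Fanca, which encodes a large structural subunit of the core complex, was highest in Neutrophil at 837 ± 37.9 and in the libraries labelled Monocyte at 803 ± 122. Erythroid followed at 251 ± 155, and ST.HSC, the short-term stem cell, was lowest at 37.6 ± 14.8. The adjusted p was 1.36e-09. The libraries labelled Monocyte lay above both Erythroid libraries, while 11 of the 15 pairs of types next to each other in the order overlapped. The Monocyte values were 717 and 889, from 90 and 77 reads. Zfp276, which overlaps Fanca, stood at 365 and 317 in Neutrophil, against 54.4 and 76.1 in GMP, and its type means followed those of Fanca (r = 0.74 over 16 types).

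Fancg, whose product is an adaptor that binds FANCA, was highest in MkP at 517 ± 97.8, then in GMP at 336 ± 97.7 and ST.HSC at 326 ± 171. B_cell was lowest at 36.7 ± 37.6, where the 2 libraries held 26 and 4 reads. LT.HSC libraries had 211 and 201. The MkP libraries lay above those of GMP and the libraries labelled CD8 above those of B_cell, while 12 of the 15 adjacent pairs overlapped.

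Fance, which encodes the subunit that contacts FANCD2, was highest in MEP, the megakaryocyte and erythroid progenitor, at 584 ± 15.7. MkP had 505 ± 117 and CLP, the common lymphoid progenitor, was lowest at 159 ± 1.53. LT.HSC libraries had 253 and 265. The MkP libraries lay above those of CMP, the third type at 366 ± 66.3, and 12 of 15 adjacent pairs overlapped.

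Fancc, which encodes a subunit that pairs with FANCE, was highest in MkP at 260 ± 34.4, Erythroid at 255 ± 3.99 and MEP at 249 ± 2.65, whose libraries overlapped apart from those of Erythroid and MEP. Neutrophil was lowest at 54.8 ± 16.0, below both libraries of DC. Fancl, which encodes the ubiquitin ligase subunit itself, stood far apart in Erythroid at 1234 ± 21.5, against 417 ± 88.7 in MEP, the next type. It was lowest in the libraries labelled Monocyte at 94.0 ± 2.25.

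Fancm, the translocase gene, was also highest in Erythroid at 250 ± 68.0, with B_cell next at 125 ± 45.8 and MkP lowest at 29.1 ± 18.5. Fancb, the X-linked member that stabilises the ligase module, was highest in MkP at 78.6 ± 25.7, above every library of LMPP, the next type at 34.6 ± 22.7. Fancf, a small adaptor gene, was low everywhere, from 0 in the libraries labelled Monocyte, where a single read would be worth 7.97 and 11.6, to 13.4 ± 0.686 in MkP, and all 15 of its adjacent pairs overlapped.

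Fancd2, the main ubiquitin acceptor of the pathway, was highest in Erythroid at 230 ± 45.1 and MEP at 155 ± 26.6, and lowest in ST.HSC at 13.1 ± 5.56 and in the libraries labelled CD8 at 12.3 ± 6.73. Fanci, which encodes its partner, had the same 2 types on top, Erythroid at 134 ± 38.5 and MEP at 97.4 ± 7.85, and was lowest in DC at 15.4 ± 4.61. For Fancd2 the libraries of Erythroid lay above those of MEP, and those of MEP above those of CLP. The call across types was weakest for Fanci (adjusted p = 0.0231), Fancb (0.0406) and Fancf (0.0432), and without the libraries labelled Monocyte Fancf was not called (0.129), nor Fancb without those labelled CD4 and CD8 (0.0814). Calls this near the threshold hung on single libraries: that of Fancb was lost without any 1 of most libraries, with an adjusted p of up to 0.118 without the first MkP library, that of Fancf likewise with up to 0.0948 without the second DC library, and that of Fanci without the second Erythroid library (0.0516).

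**Figure D1:**
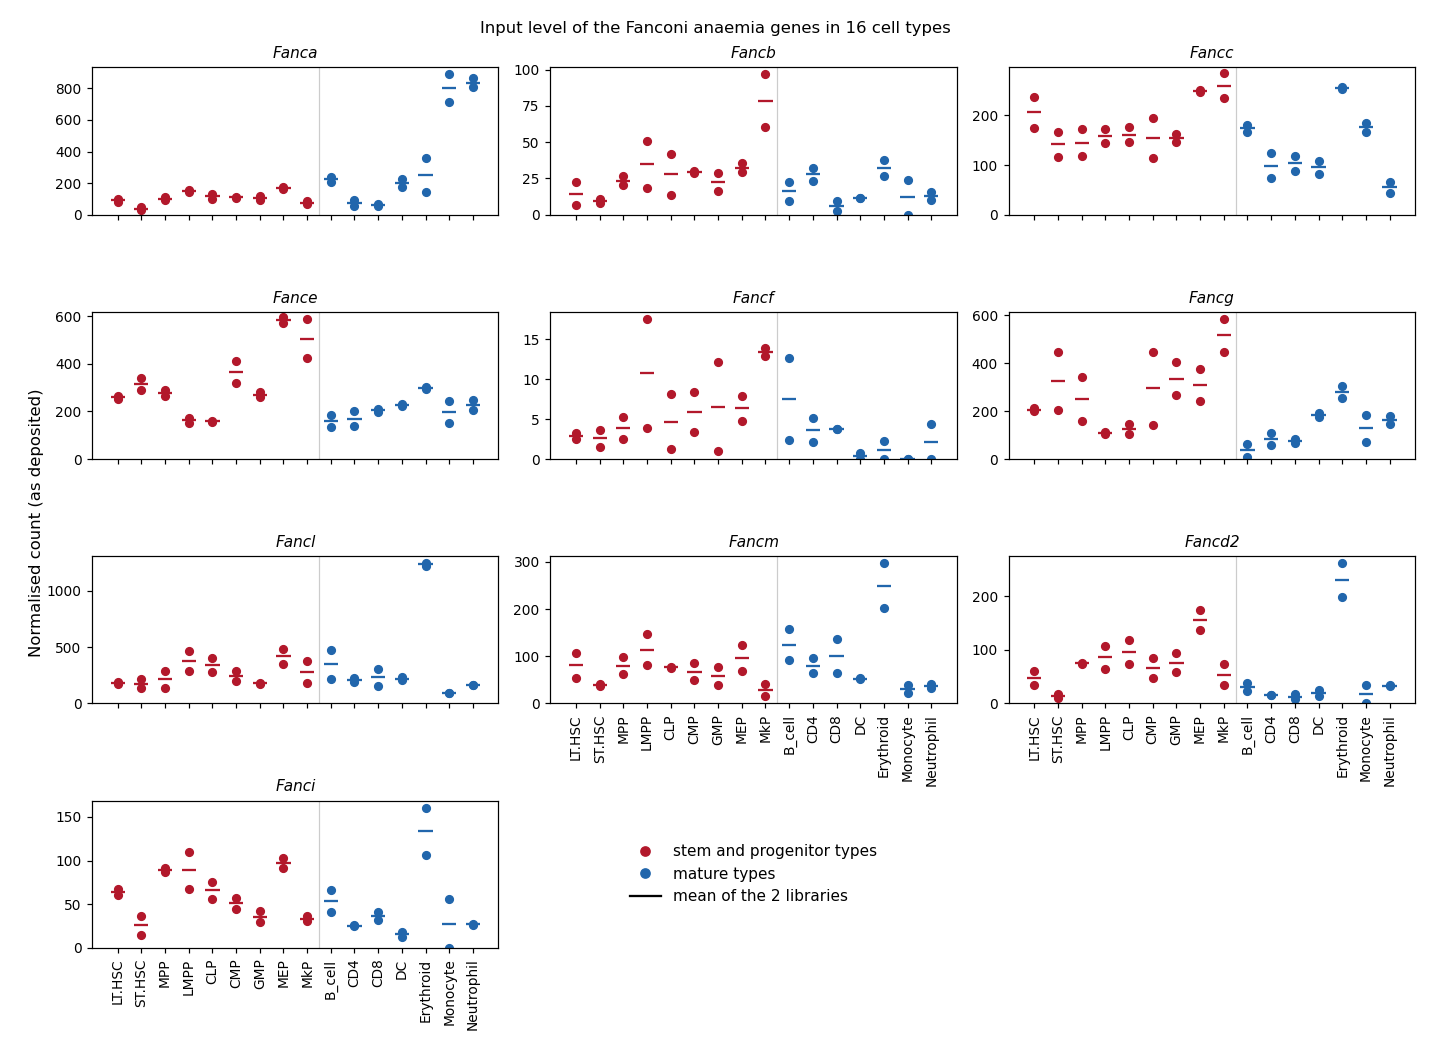
Normalised input level of each of the 10 genes (vertical axes, normalised counts) in the 16 cell types of the wild-type atlas, with 1 point per library and a line at the mean of 2. On this deposited scale Fanca peaks in Neutrophil and in the libraries labelled Monocyte, Fancl and Fancm in Erythroid, and Fancg and Fancb in MkP. By CPM the libraries labelled Monocyte are at rank 10 of 16 for Fanca, and Fancl is highest in MEP and Fancm in LMPP.

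The order depends on how libraries are scaled. When recovered reads were divided by each library's total instead, LT.HSC came first for Fancc at 29.1 ± 8.27 CPM, MEP for Fancd2 at 13.9 ± 2.62, MPP for Fanci at 10.2 ± 1.35 and LMPP for Fancm at 12.5 ± 8.26. Fancl was then highest in MEP at 37.4 ± 8.59 CPM, with Erythroid the third at 31.3 ± 2.86. The normalised values of the 2 Erythroid libraries summed to 36.6 and 42.7 M and those labelled Monocyte to 83.1 and 113 M, more than any other library. Erythroid came first for Fancl, Fancm, Fancd2 and Fanci on the deposited scale and for none of them on the CPM scale. Neutrophil kept the first place for Fanca, at 40.7 ± 0.420 CPM, and MkP for Fancg and Fancb. For Fanca the libraries labelled Monocyte went from rank 2 to rank 10, at 8.24 ± 0.544 CPM. Erythroid went from rank 3 to rank 13, at 6.16 ± 3.24 CPM.

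Stem and progenitor cells (9 types, 18 libraries) carried more of most of these transcripts than mature cells (7 types, 14 libraries). Of the 10 genes 8 were called (limma, adjusted p over 17165 genes), 7 higher and 1 lower, where 69% of all genes were called, 29.6% as higher and 39.4% as lower. Among the 7 is Fancf, which passed the filter only with stem and progenitor libraries, as given below. The median difference of the 10 was 0.70 on the log2(value + 1) scale, beside -0.16 for all genes. Each value below is given as lowest, median and highest library.

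Fancg had 103, 228 and 586 in stem and progenitor libraries, against 10.1, 129 and 306 in mature ones. The groups overlapped, as they did for each of the 10 genes. The log2 difference was 1.16 (SE 0.22, adjusted p = 5.27e-05), and 1.18 without the libraries labelled Monocyte. Fance had 152, 284 and 595 in stem and progenitor libraries, against 134, 208 and 301 in mature ones. Its difference of 0.51 (SE 0.10, adjusted p = 5.51e-05) was small beside its spread among types.

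Fancc had 115, 173 and 285 in stem and progenitor libraries, against 43.5, 121 and 258 in mature ones, a log2 difference of 0.52 (SE 0.12, adjusted p = 0.000453). Fancb had 6.46, 27.7 and 96.7, against 0, 13.7 and 37.7 in mature libraries (0.93, SE 0.34, adjusted p = 0.0181). Both medians of Fancb rest on few reads. Fancf had 1.00, 4.34 and 17.5 in stem and progenitor libraries, against 0, 2.16 and 12.7 in mature ones (1.19, SE 0.35, adjusted p = 0.00378). Its inputs held a median of 4 reads. Fancf reached the filter value of 10 in MkP (12.9 and 13.8), LMPP (17.5) and GMP (12.1). Of the mature types only B_cell reached it, with 12.7 in its higher library and 2.43 in the other. Fancf thus passed the filter only with libraries of the group in which it was higher.

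Fancd2 had 9.21, 73.5 and 174 in stem and progenitor libraries, against 0, 23.6 and 261 in mature ones. The zero belonged to a library labelled Monocyte and the highest value to Erythroid, so the mature cells spanned the whole range of the gene. The log2 difference was 1.34 (SE 0.32, adjusted p = 0.000784), and 0.99 without the libraries labelled Monocyte. Fanci had 15.2, 58.5 and 110 in stem and progenitor libraries, against 0, 29.8 and 161 in mature ones (0.88, SE 0.34, adjusted p = 0.0250). Without the libraries labelled Monocyte it was 0.54 (adjusted p = 0.00435), a value more than 1.5 times smaller that stayed called, and without those labelled CD4 and CD8 it was 0.90 and not called (adjusted p = 0.0512).

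Fanca was the member that was lower in stem and progenitor cells. It had 27.2, 103 and 176 there, against 54.4, 214 and 889 in mature libraries, a log2 difference of -1.19 (SE 0.13, adjusted p = 2.17e-08). Without the libraries labelled Monocyte the difference was -0.88 (adjusted p = 5.56e-06), with a mature median of 190, and without those labelled CD4 and CD8 it was -1.89 (adjusted p = 1.92e-10). Fancl (-0.02, adjusted p = 0.932) and Fancm (-0.23, SE 0.19, adjusted p = 0.277) were not called, and without the libraries labelled Monocyte Fancm was (-0.44, adjusted p = 0.0427).

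**Figure D2:**
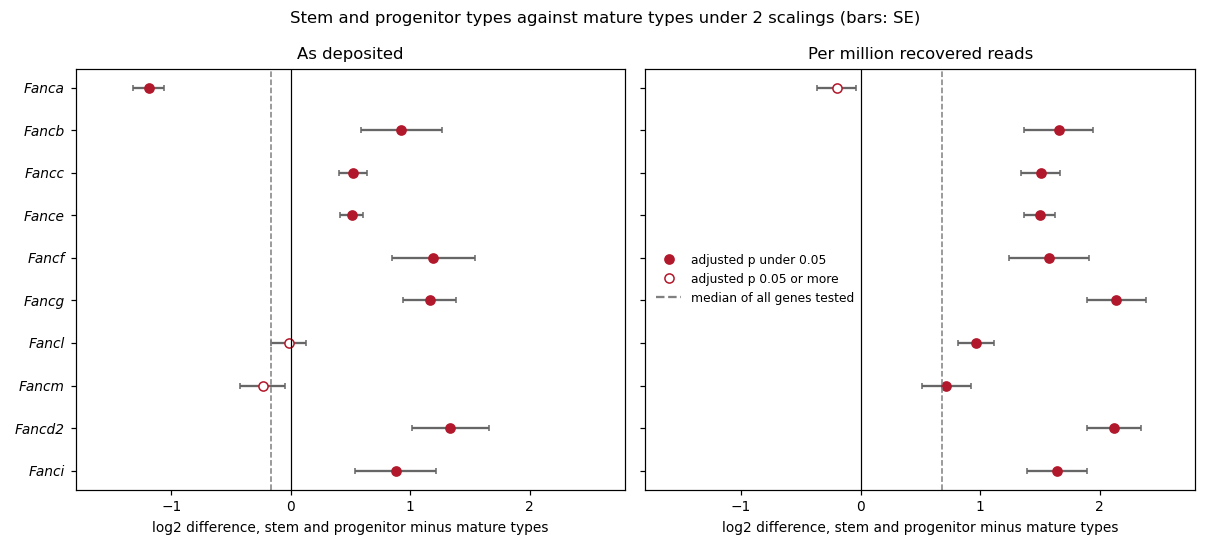
Difference between stem and progenitor types and mature types for each of the 10 genes (horizontal axes, log2 scale, with bars for the SE), on the deposited scale (left) and on the CPM scale (right), with filled points for an adjusted p under 0.05 and a dashed line at the median of all genes. Fancd2, Fancf and Fancg lie above 1 on the deposited scale and Fanca at -1.19, and each gene lies further right on the CPM scale, as does the median.

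Scaling to each library's total moved the median of all genes in this comparison to 0.69, and the share of called genes that were higher in stem and progenitor cells to 77.6%, against 42.9% on the deposited scale. Relative to the median of all genes the 7 members that were higher lay 0.81 to 1.45 above it with that scaling, and Fanca lay 0.88 below it. Fanca then had a difference of -0.20 before the median was taken off (adjusted p = 0.273), so its lower level in stem and progenitor cells was called on the deposited scale and not by share of reads. Fancl (0.97, adjusted p = 2.36e-06) and Fancm (0.72, adjusted p = 0.00286) turned to higher with that scaling, being 0.28 and 0.03 above the median.

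Within this contrast 18 of 33 other Fanconi and crosslink repair genes were higher in stem and progenitor cells and 3 were lower, with a median of 0.43. Cenps, whose product is a DNA-binding partner of FANCM, had a log2 difference of 1.20 and Chek1, a checkpoint kinase gene, 1.12. Rev3l, a translesion polymerase subunit (-0.54), and Slx4, the nuclease scaffold (-0.41), were among the lower ones. Of 28 replication and mitosis genes 22 were higher and 1 was lower. The aldehyde-clearing enzymes Aldh2 (0.65) and Adh5 (0.43) were both higher.

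Across the 16 types Fancd2 and Fanci varied together (r = 0.83 of type means on the log2 scale), as did Fance and Fancg (0.83) and Fancl and Fancm (0.79). Fanca and Fancf had the lowest value of the 45 pairs, -0.48. Among the genes whose type means were most like Fancd2 were Ncapd2 (0.94) and Psrc1 (0.93), and those most like Fanci were Brca1 (0.91), Aspm (0.90) and Blm (0.88) among well-expressed genes. Fancg lay closest to Lcmt2 (0.95) and Fanca to Ipmk (0.90). The mean level of the 28 replication and mitosis genes followed Fancd2 with r = 0.91, Fanci with 0.70 and Fanca with 0.24. These are descriptions over 16 type means that share libraries and scaling.

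No member was called in LT.HSC. Set against the other 15 types as a whole, limma called 0 of 10, where 40.3% of all 17165 genes were called, and 1 of 10, Fanca, had an unadjusted p under 0.05. Fanca had 81.6 and 102 in LT.HSC, and its difference was -0.66 (SE 0.27, adjusted p = 0.0525). Counting recovered reads with edgeR called Fanca alone (-0.76, adjusted p = 0.0289), as did limma without the libraries labelled CD4 and CD8 (-0.84, adjusted p = 0.0163). The other 9 differences ran from -0.59 to 0.64.

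The 8 other stem and progenitor types, as a whole, again left LT.HSC with 0 of 10 called by limma or edgeR and 0 with an unadjusted p under 0.05, beside 40.3% of all genes called. The differences of the members ran from -1.07 to 0.29. In the same contrast 24 of 28 replication and mitosis genes were lower in LT.HSC and 0 higher (Ccna2, -3.21), and of the other 33 Fanconi and crosslink repair genes 11 were lower (Eme1, -2.03) and 1 was higher (Rev1, 0.82). Fancd2 had 60.9 and 35.1 and Fanci 66.9 and 60.2 in LT.HSC. Scaled to library totals, 6 members were called higher in that first comparison, from 1.13 for Fance to 1.61 for Fanci, but the median of all genes was then 1.18, beside 0.17 on the deposited scale. The share of called genes that were higher in LT.HSC was 89.9% with library totals and 56.5% on the deposited scale.

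Each of 3 mature types was set against a progenitor of its lineage. Erythroid cells against MEP had 3 of 10 members called, beside 33.9% of all genes. Fancl had 1219 and 1249 in Erythroid, against 480 and 354 in MEP. The groups did not overlap, and the log2 difference was 1.58 (SE 0.41, adjusted p = 0.00422), losing its call without the second MEP library (1.36, adjusted p = 0.0590). Fancm had 202 and 298 in Erythroid, against 123 and 68.3 in MEP (1.41, SE 0.53, adjusted p = 0.0418), a call that edgeR on recovered reads did not make (adjusted p = 0.104). It was also lost without the first Erythroid (1.69, adjusted p = 0.0624), the second Erythroid (1.13, adjusted p = 0.220), the second MEP (0.99, adjusted p = 0.311) or the first DC library (1.41, adjusted p = 0.05002).

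Fance was lower in Erythroid, with 301 and 295, against 595 and 573 in MEP. The groups were far apart, and the difference was -0.97 (SE 0.27, adjusted p = 0.00751). Scaled to totals, Fancl had 33.3 and 29.3 CPM in Erythroid, against 43.4 and 31.3 in MEP, which overlap, and its difference turned to -0.24 (adjusted p = 0.687), that of Fancm to -0.40 (adjusted p = 0.612). With that scaling the median of all genes moved to -1.19, and Fancl and Fancm lay 0.95 and 0.79 above it, Fance 1.59 below it.

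Neutrophils against GMP, the granulocyte and macrophage progenitor, had 2 of 10 called, beside 38.6% of all genes. Fanca had 810 and 864 in Neutrophil, against 92.1 and 121 in GMP. The groups were far apart, and the log2 difference was 2.97 (SE 0.37, adjusted p = 6.39e-07), against 2.83 scaled to totals. Fancc was lower in Neutrophil, with 66.1 and 43.5, against 162 and 147 in GMP (-1.51, SE 0.33, adjusted p = 0.000833). In this contrast 15 of 28 replication and mitosis genes were lower and 17 of 33 other Fanconi and crosslink repair genes were lower, with 1 higher.

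B cells against CLP had 1 of 10 called, beside 26.6% of all genes. Fancg had 63.3 and 10.1 in B_cell, against 148 and 103 in CLP. The groups did not overlap, and the difference was -2.22 (SE 0.61, adjusted p = 0.00914). It rested on single libraries, being -0.96 (adjusted p = 0.303) without the second B cell library and -1.96 (adjusted p = 0.0884) without the first CLP library. Fancd2 had 38.9 and 22.8 in B_cell, against 73.5 and 117 in CLP (-1.61, adjusted p = 0.199), and was called when the libraries labelled Monocyte were left out (adjusted p = 0.0187).

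In the IP libraries Fancg was almost absent from LT.HSC. The anti-m6A fraction held 2 and 4 counts of Fancg in the 2 LT.HSC libraries, although their inputs held 211 and 201 normalised units. Enrichment is the log2 level in the IP library minus that in its input, each table being scaled by TMM to a common total first, so only differences in enrichment between types have meaning. It was -6.23 and -5.88 for Fancg in LT.HSC, below each of the other 30 libraries, which ran from -4.24 in a library labelled CD8 with 3 counts to 3.47 and had a median of -0.95. Their IP counts ran from 3 to 327, with a median of 149.5. Fancg is given here as a description only, its low value in LT.HSC having been known when these genes were chosen: the difference was -5.32 against the other 15 types together and -4.49 against MkP. A near-empty IP signal was rare but not confined to it: of 8023 genes with an input of at least 100 in LT.HSC, 23 (0.287%) had at most 5 counts in both IP libraries, and in the libraries labelled CD8 50 of 7762 did.

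Fancc was lower in LT.HSC as well. Its IP libraries held 37 and 42 counts and its enrichment was -2.71 and -3.41, whereas the other 30 libraries ran from -4.21, in an LMPP library with 9 counts, to 1.10, with a median of 0.14. Only that LMPP library lay below the LT.HSC pair. With the other 15 types together as the comparator the difference was -3.05 (SE 0.64, limma adjusted p = 0.00165), and against MkP it was -3.73 (SE 0.88, adjusted p = 0.00552). Fancc was the only call among the 9 members other than Fancg in each contrast, where 10.9% and 9.48% of the 15618 genes tested were called, namely 8.83% and 7.68% as lower and 2.09% and 1.8% as higher. Without the first LT.HSC IP library, Fancl (-3.003, adjusted p = 0.000102) and Fancm (-3.01, adjusted p = 0.00558) were also called lower against the other 15 types, and without the second Fancb was (-4.14, adjusted p = 0.0394). Against MkP, without that first library, Fancl (-3.20, adjusted p = 0.000870) and Fancm (-3.72, adjusted p = 0.00604) were also called lower and Fance higher (2.89, adjusted p = 0.0488).

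Enrichment differed among the 16 types for Fancc (F test, adjusted p = 0.0169) and for no other of those 9 members, beside 27% of all genes. Counting reads with edgeR left Fancc at an adjusted p of 0.0517 in that test, and leaving out the second LT.HSC input left it at 0.0636. The replicates of several types disagreed for these genes. In LT.HSC Fancl had 880 and 64 IP counts, an enrichment of 1.82 and -2.54, and Fancm had 761 and 36. Fance ran the other way, with 67 and 1112 counts, and Fancb had 0 and 146. The replicate difference was over 2 on the log2 scale for 5 of 10 members in LT.HSC and for 7 of 10 in the libraries labelled CD8, and the LT.HSC IP pair had the lowest correlation of the 16 (r = 0.80). For Fancf, Fancg, Fancc and Fanca the 2 LT.HSC libraries lay within 1 of each other.

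Among the rest, Fancf had an enrichment of 3.50 ± 0.18 in LT.HSC (SD, n = 2) and a median of 2.32 in the other libraries. Its inputs held a median of 4 reads, and its scaled input in LT.HSC was 1.96, near the 1 added before the log. Its values are therefore not ranked against those of other genes. Fancd2 had 1.13 ± 1.71 in LT.HSC and a median of 1.53 elsewhere, and Fanci -0.08 ± 1.06 and 1.20. Fanca had 1.01 ± 0.56 in LT.HSC and 0.76 elsewhere. None of these differences between LT.HSC and the other 15 types was called.

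**Figure D3:**
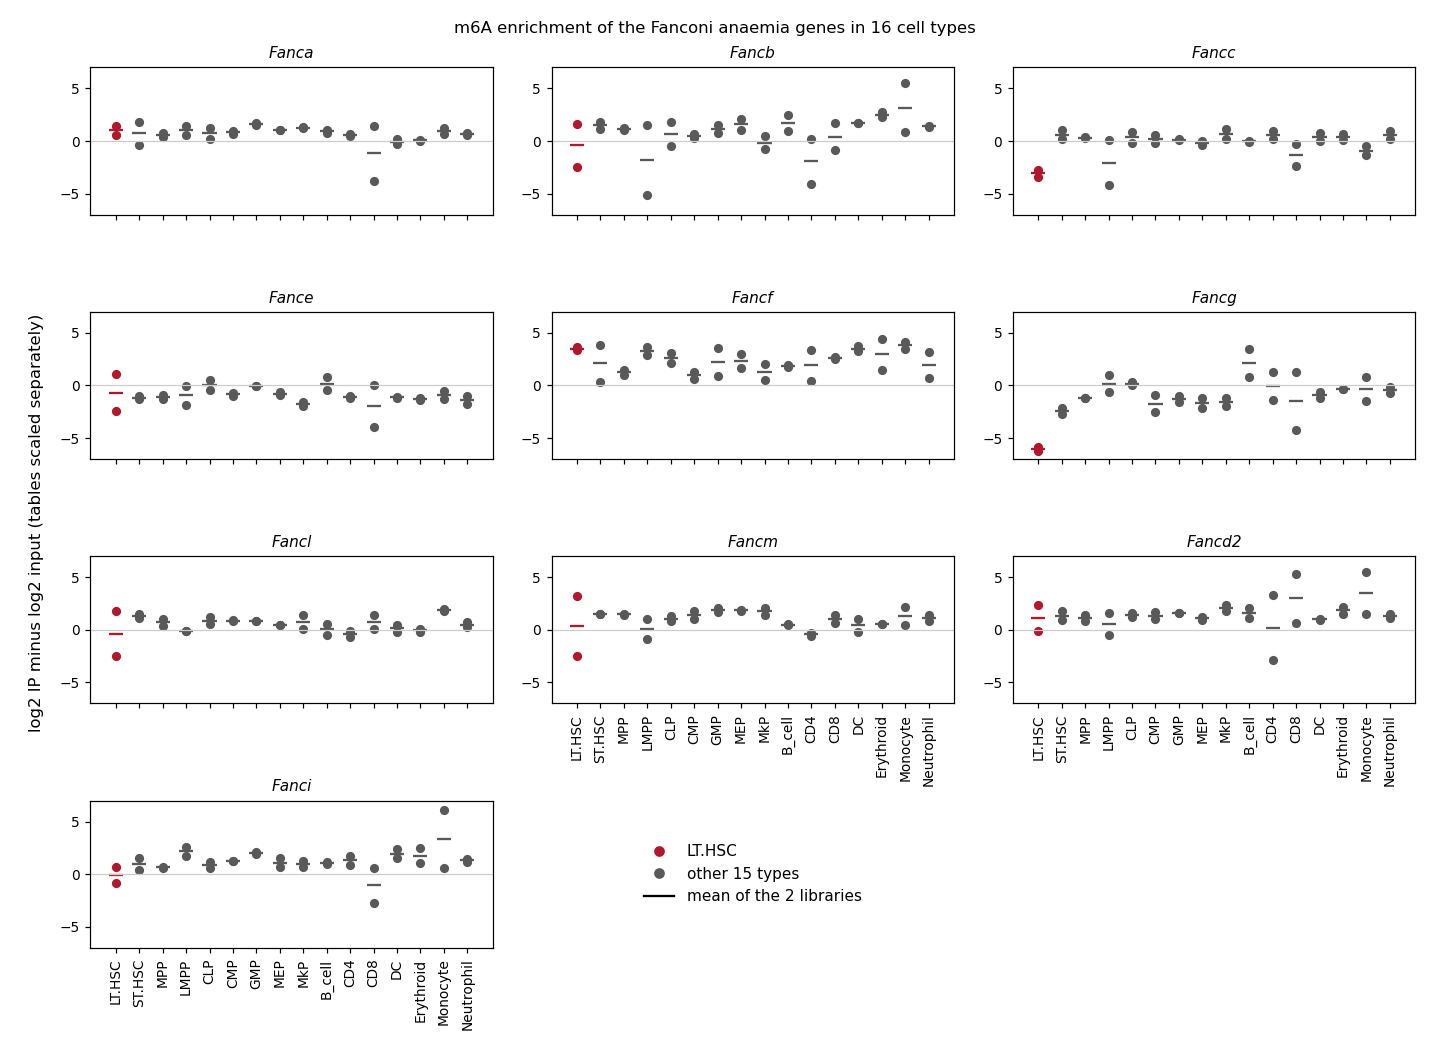
Enrichment of each of the 10 genes (vertical axes, log2 IP minus log2 input) in the 16 cell types, with 1 point per library. Both LT.HSC points of Fancg lie near -6, and the replicates of LT.HSC, CD8 and LMPP lie far apart for several genes.

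Fancf was lower in the inputs labelled Mettl3 knockout. Its normalised level was 0 to 12.8 with a median of 2.18 in the 14 knockout inputs, against 0 to 38.3 with a median of 14.5 in the 14 wild-type inputs. Of the knockout libraries 4 were at 0, and 1 of the wild-type ones was, the sums being 49 and 394 reads. The mean was lower in knockout in 7 of 7 types, without overlap in CMP, GMP, MPP, MkP and ST.HSC. Such counts of types were not made over all genes, so here and below they are descriptions only. The log2 difference over the 7 types was -2.06 (SE 0.55, limma adjusted p = 0.0194), on a scale that understates changes near 0. It was the only one of 10 members called, where 10.1% of 15030 genes were, 2.89% as lower and 7.24% as higher. With no filter on low values the adjusted p was 0.0579. In the wild-type atlas inputs of the same 7 types, the means of Fancf ran from 2.62 in ST.HSC to 13.4 in MkP. By CPM they ran from 0.278 in GMP to 1.05 in MkP. These normalised means lie below the median of 14.5 in the Mettl3 wild-type inputs, though the scaling of the sets may differ. Whether the wild-type sets differ was not tested.

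Fanci had 7.39 to 58.9 with a median of 20.5 in knockout inputs, against 9.41 to 248 with a median of 37.1 in wild-type inputs. The highest wild-type value came from 1 LT.HSC library. The difference was -0.95 (SE 0.41, adjusted p = 0.139), and the mean was lower in knockout in 6 of 7 types. Fancc (-0.43, adjusted p = 0.224) and Fancl (-0.37, adjusted p = 0.248) also had lower means in 6 of 7 types without being called. Fancc did not overlap in CMP, LT.HSC, MEP and MkP, with knockout lower in each. Types without overlap, in either direction, ran from 1 of 7 for Fancb, Fancg and Fancm to 5 of 7 for Fancf. With 2 libraries against 2, groups can separate without a difference, and the share over all genes is not known.

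Fance had 190 to 682 with a median of 297 in knockout inputs, against 25.7 to 620 with a median of 244 in wild-type inputs (0.58, adjusted p = 0.237). Fancd2 had a median of 39.6 in knockout and 44.6 in wild type (0.36), and Fanca 76.7 and 65.3 (0.22). Fancg had 133 to 627 in knockout and 169 to 561 in wild type (-0.11), and the ranges overlapped almost fully. Fancb and Fancm differed by -0.02 and -0.08. In the same comparison 7 of 15 p53 target genes were higher in knockout, led by Gdf15 (3.26, adjusted p = 0.000263), and 1 of 33 other Fanconi and crosslink repair genes was, Faap100 (0.70, adjusted p = 0.0397), whose product is a core complex partner.

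Within single cell types 0 of 10 members were called by limma in any of the 7. Over all genes the calls were 0.539% in LT.HSC, 2.14% in MEP, 0.113% in MkP, 0.0133% in ST.HSC and in MPP, 0.00665% in CMP and 0% in GMP. At an unadjusted p under 0.05 there were Fance and Fanci in LT.HSC, Fancf in ST.HSC and MkP, and Fancm in MPP. Fancm had 14.1 and 12.3 normalised units in knockout MPP, from 8 and 22 reads, against 59.8 and 56.4 in wild-type MPP, without overlap. In LT.HSC Fanci differed by -3.51 (SE 1.07, adjusted p = 0.114) and Fance by 1.92. Without the second wild-type LT.HSC input Fanci (-4.65, adjusted p = 0.0218), Fance (3.18, adjusted p = 0.0263) and Fancb (4.89, adjusted p = 0.0457) were called there. A test of whether the difference between genotypes varied between cell types called 0 of 10 members (limma, 0 with an unadjusted p under 0.05, beside 0.0133% of all genes called).

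**Figure D4:**
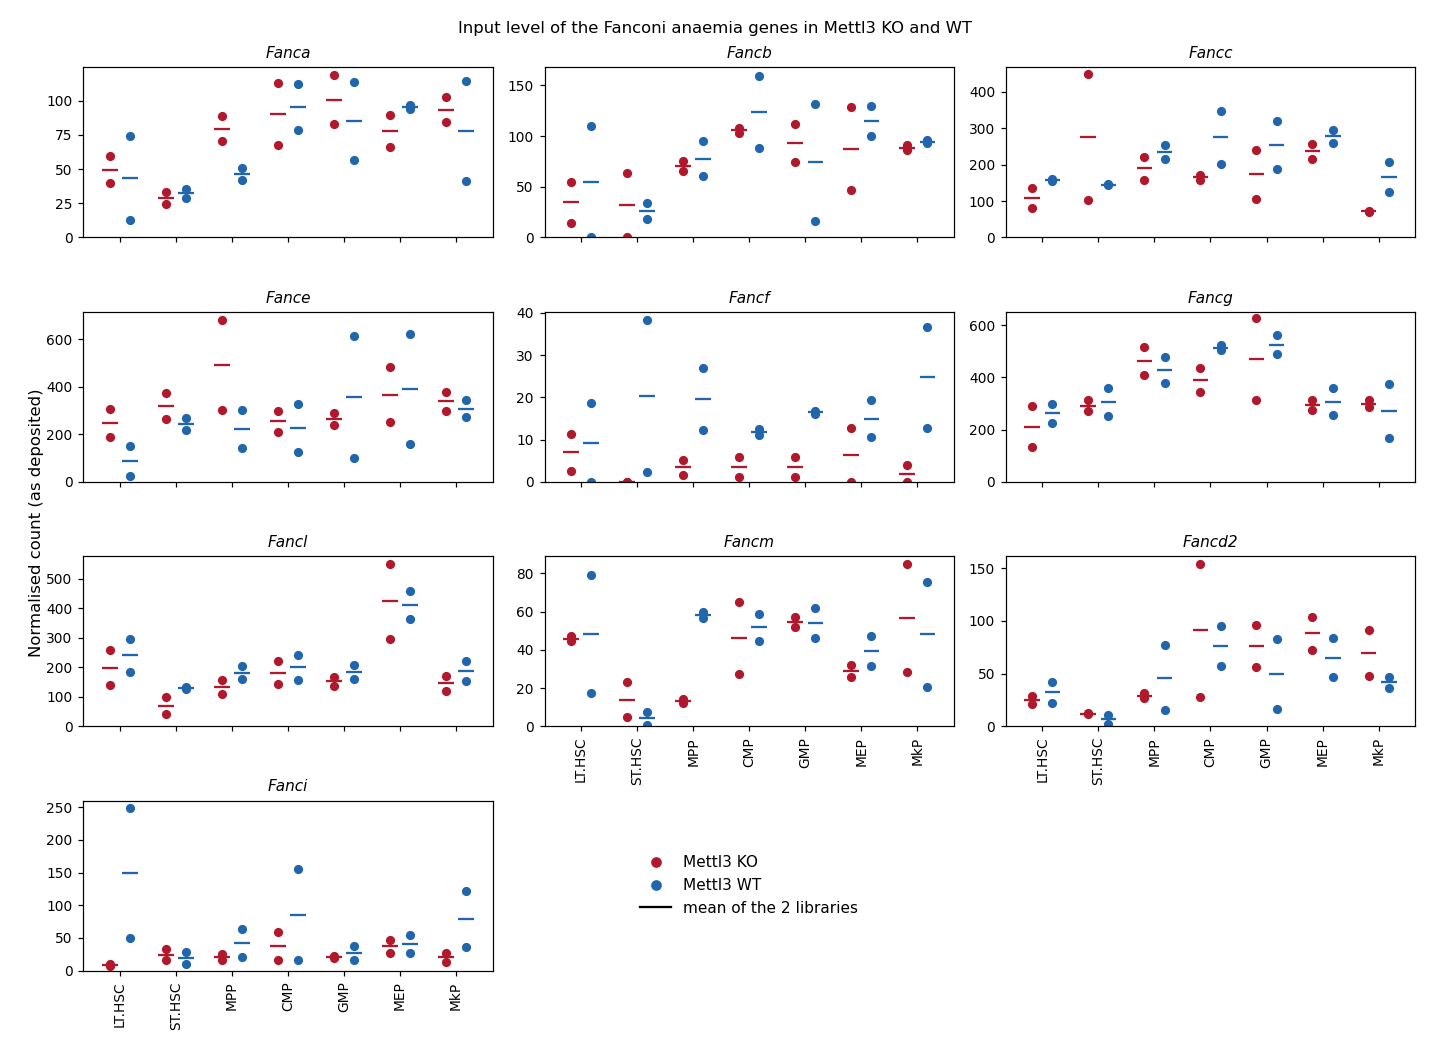
Normalised input level of each of the 10 genes (vertical axes, normalised counts) in libraries labelled Mettl3 knockout (left of each pair) and wild type, by cell type, with 1 point per library. Fancf is lower on average in knockout in each of the 7 types.

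In the Mettl3 IP libraries Fancg again had few counts in wild-type LT.HSC. It had 305 and 133 IP counts in knockout LT.HSC, against 1 and 1 in wild type, and 12 and 67 in knockout ST.HSC, against 2 and 5 in wild type. Knockout MkP also had more, 478 and 156 counts, against 25 and 0 in wild type. Knockout MPP had fewer, 12 and 147 counts, against 509 and 250 in wild type. These counts are not scaled to depth, which differed the same way in MkP and MPP and the other way in LT.HSC and ST.HSC. The LT.HSC IP libraries held 9.66 and 12.8 M reads in knockout, against 17.0 and 15.6 M in wild type. Those of ST.HSC held 13.1 and 11.9 M, against 17.0 and 17.4 M. The MkP IP libraries held 16.2 and 12.3 M reads in knockout, against 8.10 and 8.87 M in wild type. Those of MPP held 8.42 and 13.4 M, against 17.7 and 16.9 M. Counts in CMP, GMP and MEP are not given here. The wild-type libraries at the low end were uneven. In the first wild-type LT.HSC library 10 genes took 94.2% of all counts, and in the first wild-type ST.HSC library 75.8%. Of 6944 genes with a wild-type LT.HSC input of at least 100, 221 (3.18%) had at most 5 counts in both IP libraries, so the near-empty Fancg signal was shared with many genes there.

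Averaged over the 7 types, the enrichment of Fancg was higher by 1.25 in knockout (SE 0.68, limma adjusted p = 0.985), and by 0.95 (adjusted p = 0.997) without LT.HSC and ST.HSC, whose first wild-type IP libraries had those shares, and MEP, whose knockout IP libraries held 0.819 and 2.11 M reads. The types kept had uneven libraries too: in the first knockout GMP IP library 22.1% of the genes with an input of at least 100 had at most 5 counts, and in the first wild-type MkP library 12.9%. Fancf had the largest difference, 2.27 (SE 0.89, adjusted p = 0.985). Its enrichment ran from -3.78 to 5.02 in knockout and from -5.45 to 4.27 in wild type, and its input level, which enters the difference, was the one that was lower in knockout. None of the 10 was called by limma and 1, Fancf, had an unadjusted p under 0.05. Of all 14220 genes 0 were called by limma (641 with an unadjusted p under 0.05) and 0 by edgeR.

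No member was called between the libraries labelled Igf2bp2 knockout and wild type. Fancm had 26 and 48 counts in knockout LT.HSC, against 13 and 1 in wild type, which is 5.55 and 7.39 CPM, against 0.651 and 0.203 CPM in wild type. It was higher in both knockout libraries, by 4.15 on the log2 scale (edgeR quasi-likelihood, adjusted p = 0.671). Fance had 9.61 and 5.697 CPM in knockout, against 32.1 and 15.9 CPM in wild type, lower in both without being called. Fanci had 2.35 and 4.16 CPM in knockout, against 7.31 and 10.6 CPM in wild type, and likewise did not overlap. With 2 libraries against 2, groups can separate without a difference. The share of all genes without overlap is not known here, so these separations are descriptions only. Fancg had 19.01 and 38.3 CPM in knockout, against 27.3 and 31.9 CPM in wild type, and Fancc 8.33 and 15.6 CPM, against 16.1 and 5.29 CPM, and both overlapped. The remaining tested members, Fanca (16.7 and 7.39 CPM in knockout, against 8.11 and 4.68 CPM) and Fancl (7.48 and 2.00 CPM, against 6.56 and 5.49 CPM), overlapped too.

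Of the 7 members that passed the filter 0 were called and 1, Fancm, had an unadjusted p under 0.05. Fancb (0 and 47 counts in knockout, against 8 and 0), Fancd2 (0 and 1, against 1 and 25) and Fancf (4 and 9, against 0 and 2) did not pass it. Over all 12221 genes edgeR called 0, with 777 at an unadjusted p under 0.05, and DESeq2 called 94, none of them a member. With 2 libraries a genotype, differences in these genes may have been missed at this spread.

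The deposited T-to-C ratio after 3 h of 4sU, a readout of newly made RNA printed as a percent, had no member called in LT.HSC. Its denominator is unknown, so it is not read as the share of transcripts that are new. Fancg had 0.150 and 2.06% in LT.HSC, against 0.00478 to 2.54% with a median of 0.511% in the 10 libraries of the other 5 types. Fanca had 0.121 and 4.10% in LT.HSC, against 0.0574 to 2.01% with a median of 0.718%. In both genes 1 LT.HSC library lay below and the other above the median of the other types. Fance was alike, with 0.814 and 8.06% in LT.HSC, against 0.101 to 2.21% with a median of 1.35%.

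Fancl had 1.11 and 2.65% in LT.HSC and a median of 1.13% elsewhere, and Fancm 1.82 and 2.40% and a median of 1.84%. Fancd2 had 1.16 and 4.39%, against a median of 2.19%, and Fanci 0.384 and 0.746%, against 0.771%. Fancc had 0.370 and 1.26%, against a median of 0.464%, and Fancb 0.288 and 5.52%, against 2.15%. Fancf, with 1.57 and 0% in LT.HSC and a median of 3.82% elsewhere, had the largest difference, -2.57 on the log2(percent + 0.1) scale (limma adjusted p = 0.518).

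The second LT.HSC library was the higher one for 9 of the 10 genes, and the median of the 10 was 0.599% in the first and 2.52% in the second, beside 0.579% and 0.244% for all genes. LT.HSC against the other types had 0 of 10 members called and 0 with an unadjusted p under 0.05, and the test of any difference among the 6 types gave the same 2 counts. Of all 13909 genes limma called 0 in both tests, with 1371 and 1695 at an unadjusted p under 0.05. The depth behind the ratios is unknown, so a ratio from few reads cannot be told from one from many.

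**Figure D5:**
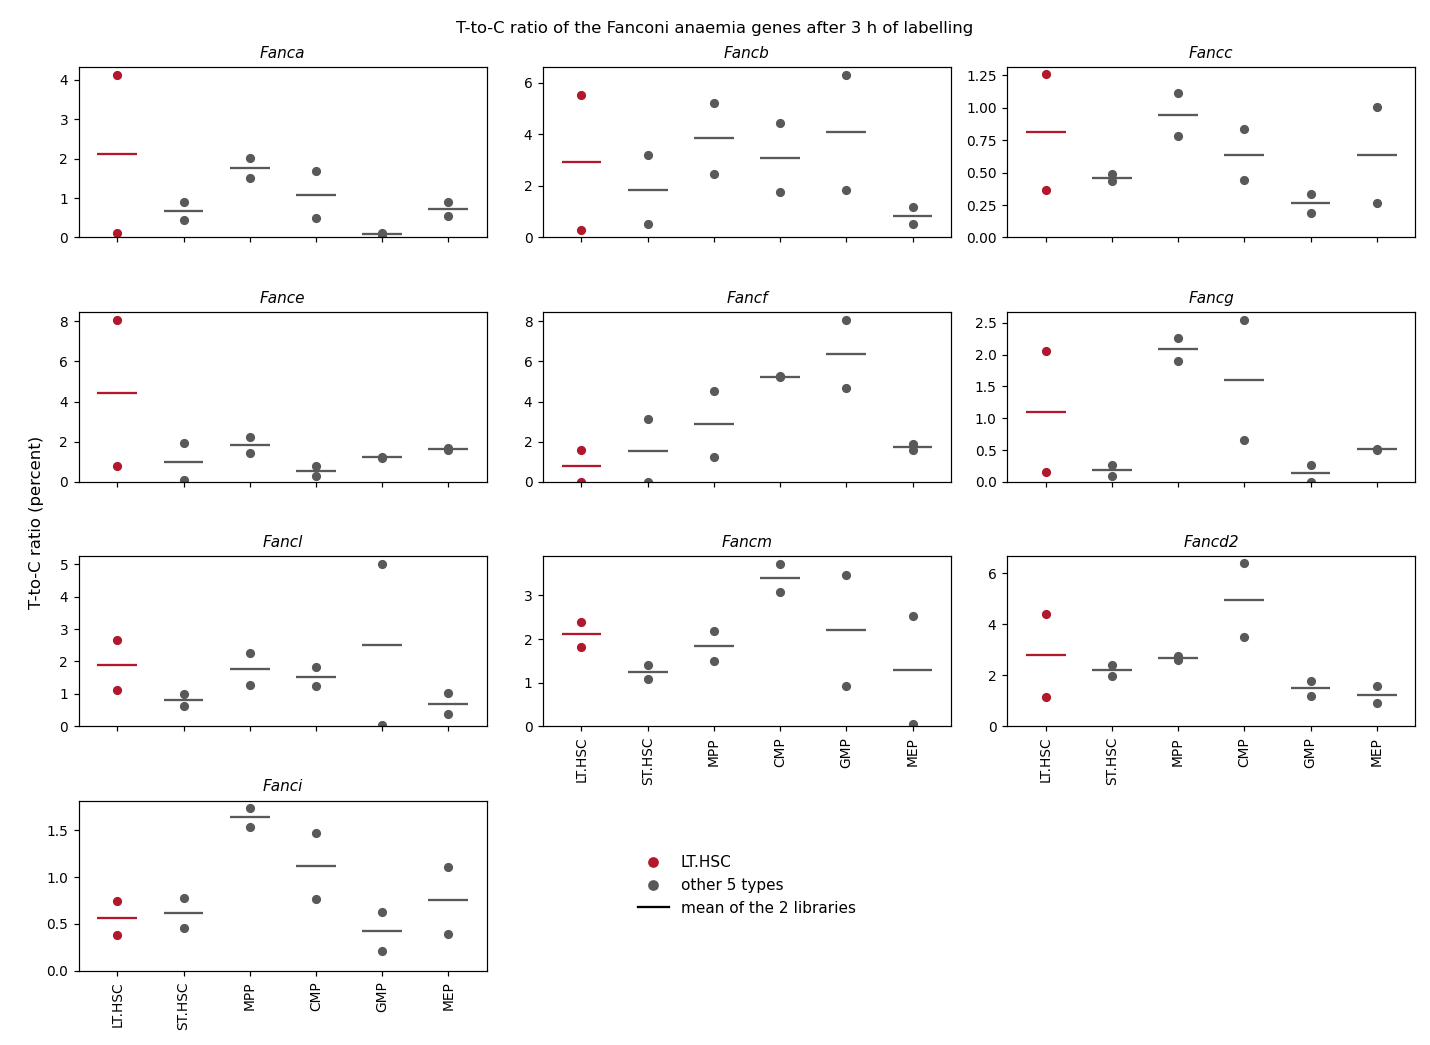
Deposited T-to-C ratio of each of the 10 genes (vertical axes, percent) in 6 cell types after 3 h of labelling, with 1 point per library. The 2 LT.HSC libraries lie apart for most genes.

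The chase held values for these genes at few times. The authors' averages list 9 of the 10 genes in LT.HSC, with 30 of 70 possible values, and 7 in MkP, with 21 of 70. Fancl had 1.53% at 0.5 h, 0.0308% at 3 h, 1.22% at 6 h and 0.0175% at 12 h in LT.HSC. Fanca had 0.746% at 0.5 h, 0.0112% at 6 h, 0.0117% at 12 h and 0.663% at 24 h, and Fancg 0.0331% at 0.5 h, 0.00765% at 1 h, 0.510% at 6 h and 0.0338% at 12 h. None of the 6 genes with at least 4 values in LT.HSC fell at every step, and Fancc, with a value at 5 times, had 0.107% at 0.5 h and 0.262% at 24 h. In MkP, Fancg had a single value, 0.0154% at 9 h. These averages carry no replicate values, so no error can be given.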

How the data were processed

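Sources. Tools named in the submitters' processing notes, without versions or roles, are kallisto, fastp and Trimmomatic, with the assembly GRCm38. Counts in whole numbers were deposited for the atlas IP and Igf2bp2 libraries, and estimated counts by the authors for the Mettl3 IP libraries, which were rounded for edgeR. The input values of the atlas and Mettl3 sets are deposited as a normalised count signal, and 100% of them came out as whole reads, to within 0.1 of a read, when divided by the smallest step of their library. On those reads edgeR called 15756 genes among types and 1514 genes for Mettl3 knockout inputs. The T-to-C values are a fraction per gene as deposited by the authors, printed as percent, with unknown depth and denominator. Normalised totals differed widely between libraries, so shares of all reads are given too.

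Tests. The tool for inputs was limma (version 3.58.1, R version 4.3.3), with a mean-variance trend, log2(value + 1) and, in the atlas, robust moderation. Genes had to reach a value of 10 in 2 or more libraries. Enrichment used a single limma fit of IP and input libraries after TMM scaling within each table to a common total. The Igf2bp2 counts were tested with edgeR 4.0.16 (quasi-likelihood), with DESeq2 1.42.0 as an alternative, and the new RNA values with limma, on log2(percent + 0.1), where 6 or more libraries were above 0. P-values were adjusted by Benjamini-Hochberg over all genes of a table, and a call means an adjusted p under 0.05. Fold changes on the log2(value + 1) scale understate changes near 0. The planned tests were kept. The test functions were run on simulated data with known changes for some contrasts. These were LT.HSC against the other types in input, enrichment and new RNA, Mettl3 knockout averaged over types in input and enrichment, and Igf2bp2 knockout. The other contrasts were not simulated. The members, the lists of other genes and the rule for named genes (all 10 members, the genes most like each of them over the 16 types, and of each list those with the largest and smallest called values) were chosen with earlier results of these data known. Some alternatives, library totals and the left-out Monocyte, CD4 and CD8 libraries and Mettl3 types, were chosen after seeing the data. Replicate numbers were not taken as pairs, because same-numbered samples did not deviate together in every pair of groups. Some genes that the naming rule selects are not reported here.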

Additional observations from a re-analysis of the deposited data

How the results depend on the processing

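Leaving aside Fancg enrichment in the atlas, of 224 results on single members 28 passed the threshold. Under the alternatives run (pseudocount, filter, scaling, count tests, replicate block and each library left out) 18 of these 28 kept their call throughout and 10 lost it in some, while 30 of the 196 uncalled results passed it in some. Among 16 types 10 members were called, and 7 to 10 with a library left out. LT.HSC against the other 15 types, with 0 called, had 1 called with a pseudocount of 10, with TMM and with edgeR (Fanca each time), 1 without the libraries labelled CD4 and CD8 (Fanca), 6 with scaling to library totals, and 0 to 2 with a library left out (2, Fanca and Fanci, without the first library labelled Monocyte). Against the other 8 stem and progenitor types 1 was called with library totals (Fancc, 0.90, adjusted p = 0.0289). In enrichment, over the 9 members other than Fancg, the 1 called among types became 3 with scaling to totals within each table, 0 with edgeR and 0 to 3 with a library left out. LT.HSC against the other 15 types had 1 called in enrichment, and 1 to 3 with a library left out (3 without the first LT.HSC IP library). Against MkP the 1 called became 1 to 4 with a library left out. The single member called for Mettl3 knockout inputs became 0 with no filter on low values, and within types 0 became 3 without the second wild-type LT.HSC library. Scaling to library totals turned Fancl (0.97) and Fancm (0.72) in stem and progenitor against mature cells, and Fanca (-1.40), Fancc (-1.77), Fancl (-0.24) and Fancm (-0.40) in Erythroid against MEP, where the median of all genes moved by the change of scale itself. The replicate block changed no count of members called (Fancf in Mettl3 knockout inputs kept an adjusted p of 0.0161), and the numbers were not taken as pairs, since the deviations of same-numbered samples did not correlate over 0.1 in every pair of groups. They did in 16 of 120 pairs in atlas inputs (median 0.003), in 56 of 91 in Mettl3 inputs (median 0.16) and in 43 of 91 in the Mettl3 IP libraries (median 0.098). Counts over all genes moved more in the Mettl3 inputs within types: in LT.HSC 81 became 225 with the block, 221 with a pseudocount of 10, 0 with edgeR and 0 to 1636 with a library left out, in MkP 17 became 33 with the block and 0 with edgeR, in MPP 2 became 5 with the block and in MEP 322 became 169 with edgeR. LT.HSC enrichment against the other 15 types went to 1123 genes with edgeR, beside 1705 with limma, and enrichment among types to 8571 with scaling to totals, beside 4217. With no filter the new RNA test among types called 69 genes, beside 0, and Igf2bp2 44, with 8 under the block. The causes were not tested. Depth limits Fancf, Fancb and the IP values of Fancg most, where a library holds a few reads.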
